A study of Homo sapiens with 19 samples.

Results

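Retinoic acid synthesis and response was described through 9 genes: the retinol dehydrogenases RDH10 and DHRS9, the retinaldehyde dehydrogenases ALDH1A1, ALDH1A2 and ALDH1A3, the carrier CRABP2, the receptor RARB, and the responders RARRES1 and CYP26A1. They make up 9 of the 19775 genes measured and 22 of the 41091 probe sets that the platform annotation ties to a single gene. The genes were chosen from measured values, with the difference between the groups of lines already known for these data, so that difference is given as a description, and counts of calls in it support nothing. Each gene is represented by its brightest single-gene probe set, and the other probe sets are described beside it.

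Expression was measured on 19 Affymetrix arrays of 10 established, untreated colon cancer cell lines, kept in DMEM with 10% serum and harvested during exponential growth. RKO, SW48, HCT116, LIM2405 and LS174T are microsatellite unstable (MSI) and HT29, T84, CACO2, SKCO1 and HCC2998 microsatellite stable (MSS), per the labels. MSI is a state of defective DNA mismatch repair in which short repeats change length. Each line was arrayed from duplicate cultures, called E1 and E2, except T84 with 1 culture, which gave 10 MSI and 9 MSS arrays. No retinoid or other treatment is named for any group, and every line is a long-established culture rather than a tumour.

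Vitamin A enters cells as retinol. Retinol dehydrogenases oxidise it reversibly to retinaldehyde, and retinaldehyde dehydrogenases of the ALDH1A family oxidise retinaldehyde irreversibly to retinoic acid. CRABP2 delivers retinoic acid to nuclear receptors, which bind with an RXR partner to direct repeats in the promoters of target genes such as RARB and CYP26A1. CYP26A1 in turn hydroxylates retinoic acid and so removes it. In the intestine retinoic acid takes part in epithelial differentiation and in mucosal immunity, and ALDH1A1 is widely used as a marker of stem-like colon cells.

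The direct repeats are shown first because they tie the receptor arm of the pathway to RARB and CYP26A1. RefSeq promoter windows of build GRCh38.p14, running from 250 bases before to 50 bases after a gene start, were available for 8 of the 9 genes. A direct repeat was defined as a pair of 6-base units, each spelled AGGTCA or one of the variant spellings AGTTCA and, with another first base, GGGTCA or else GGTTCA, with 5 bases between them, searched on both strands. RARB holds one in 1 of its 4 windows, at chr3:25428204-25428232 on the plus strand as shown, 53 bases before the start. CYP26A1 holds one in 1 of its 2 windows, at chr10:93073797-93073825 on the minus strand as shown, 90 bases before the start. Capitals mark the repeat units.
RARB: gggtagGGTTCAccgaaAGTTCActcgca
CYP26A1: acaattAGTTCAcccaaAGTTCAtcttta
Of 35114 windows in the table, 31 (0.0883%) held such a repeat. Repeats with 2 or 1 bases between the units were found in 0.0399% and 0.131% of windows and in no window of the 8 genes. A match describes the letters of the window and not binding.

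The 3 genes with the widest range over the lines, described further on, have different sequences just upstream of their starts, and 100 bases before each start are shown with CpG dinucleotides in capitals. The stretch of ALDH1A1 is at chr9:72953054-72953153 on the minus strand and holds 3 CpG. That of ALDH1A3 is at chr15:100879731-100879830 on the plus strand and holds 11. That of RARRES1 is at chr3:158732458-158732557 on the minus strand and holds 10.
ALDH1A1: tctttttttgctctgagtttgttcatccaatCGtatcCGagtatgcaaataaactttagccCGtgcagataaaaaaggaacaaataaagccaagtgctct
ALDH1A3: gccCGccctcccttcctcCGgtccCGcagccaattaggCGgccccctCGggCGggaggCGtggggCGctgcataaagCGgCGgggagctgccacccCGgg
RARRES1: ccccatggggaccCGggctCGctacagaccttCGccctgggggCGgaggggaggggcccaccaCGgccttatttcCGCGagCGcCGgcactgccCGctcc
Over the whole 250 bases upstream, ALDH1A1 has 6 CpG, more than 38.1% of windows, and ALDH1A3 has 38, more than 96.7%. RARRES1 has 23 CpG, more than 74.2% of windows. DNA methylation was not analysed here.

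Array quality and cell identity were checked before the genes were compared. Array medians lay between 5.62 and 5.71 log2, and Pearson's r between the duplicates of a line, taken over probe sets as a description, was lowest in HT29 (0.9777) and highest in LIM2405 and HCT116 (0.9961). Duplicates stood furthest apart in HT29 and CACO2, where 879 and 832 genes (4.45% and 4.21%) differed by at least 1 log2 between cultures, against 4 genes in LIM2405. Of 10 markers of intestinal epithelium, between 8 and 10 lay above the median of all deposited values (5.67 log2) in every line but LIM2405 with 6 and RKO with 5. KRT18, a keratin of simple epithelia, was at 12.81 to 14.49 log2 in all lines, whereas the mean level of the 10 markers was 6.50 in RKO, 9.06 to 11.84 in the other MSI lines and 11.08 to 12.78 in MSS lines. Markers of stromal cells averaged 5.24 to 5.80 log2 per line, those of leukocytes 4.82 to 5.56 and those of endothelium 4.94 to 5.22, all near or below the median of all values. Single markers were higher, chosen here after their values were seen: COL1A1 lay at 7.65 to 8.09 log2 in every line, PDGFRA and PDGFRB reached 6.60 and 6.55 in CACO2, and CD14 was at 8.35 in CACO2 and 7.24 in HT29. The endothelial markers PECAM1, at 6.09 to 6.64 log2, and VWF, at 5.68 to 6.05, lay above the median of all values in every line. Fewer cells of a kind and less RNA per cell cannot be told apart in RNA from a whole culture.

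Among the genes of retinol oxidation, RDH10 lay far above the median of all values in every line and DHRS9 just above it. RDH10 encodes the main retinol dehydrogenase of embryonic retinoic acid synthesis. Its levels in MSI lines (E1 and E2) were 9.21 and 9.49 in RKO, 9.28 and 9.15 in SW48, 7.89 and 7.88 in HCT116, 10.12 and 9.97 in LIM2405, and 9.65 and 9.43 log2 in LS174T. In MSS lines they were 9.58 and 9.60 in HT29, 8.38 in T84, 11.06 and 10.05 in CACO2, 10.84 and 10.77 in SKCO1, and 8.55 and 9.51 log2 in HCC2998. SKCO1 and CACO2 were highest and HCT116 and T84 lowest, and the groups overlapped. The MSI mean was 9.21 ± 0.80 and the MSS mean 9.67 ± 1.02 log2 (SD, n = 5 each), a difference of -0.46 ± 0.54 (MSI minus MSS, SE). This difference was smaller than its error and depended on single lines, being -0.13 without HCT116, -0.18 without SKCO1, -0.24 without CACO2 and -0.79 without T84.

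Of the other RDH10 probe sets, 2 differed by -0.52 and -0.37 between the groups, while the dimmest lay at 3.28 log2 on average, with a range over lines of 0.23. Neighbours in the order of lines were never further apart than the largest difference between duplicates, found in CACO2. RDH10 nevertheless differed among the MSI lines (adjusted p = 3.66e-04) and among the MSS lines (adjusted p = 1.53e-04) in limma's moderated F test, and the first call was lost without HCT116. DHRS9, a short-chain dehydrogenase active on retinol and on steroids, ranged only from 5.81 log2 in HCC2998 to 6.65 in T84, with MSI and MSS means of 6.10 ± 0.21 and 6.21 ± 0.37. Its other probe sets, of a kind that can match related sequences, lay at 4.44 and 4.29 log2 on average, and T84 was highest on both, at 5.45 and 5.24. DHRS9 differed among the MSS lines (adjusted p = 0.00469), and among the MSI lines it did not pass the threshold (adjusted p = 0.0816), though it did without SW48.

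ALDH1A1, the cytosolic retinaldehyde dehydrogenase, showed the largest separation by microsatellite status of the 9 genes. In MSI lines (E1 and E2) it lay at 4.16 and 4.30 in RKO, 4.35 and 4.44 in SW48, 3.93 and 4.13 in HCT116, 4.30 and 4.52 in LIM2405, and 7.67 and 7.21 log2 in LS174T. In MSS lines it lay at 13.02 and 12.34 in HT29, 10.09 in T84, 10.92 and 11.30 in CACO2, 12.63 and 12.64 in SKCO1, and 8.43 and 10.37 log2 in HCC2998. Every MSI line lay below every MSS line, and this held for single arrays too, with 7.67 in LS174T as the highest MSI array and 8.43 in HCC2998 as the lowest MSS array. All MSI lines except LS174T were under the median of all values, where an array measures low expression poorly.

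The group means of ALDH1A1 were 4.90 ± 1.43 and 11.18 ± 1.48 log2 (SD, n = 5 each), a difference of -6.28 ± 0.85 (SE), and -6.91 without LS174T. The corresponding 77.7-fold is rough, because the deposited values carry no detection call and 4 MSI lines may lie at the array background, where a difference is understated. Lines of the same status also differed among themselves, both MSI (adjusted p = 5.64e-05) and MSS (adjusted p = 6.75e-05) in limma's moderated F test. Among the MSI lines this call was lost without LS174T. In the order of lines, the steps from HCC2998 to LS174T (1.96) and from LS174T to LIM2405 (3.03) exceeded the largest difference between duplicates, 1.94 in HCC2998. That duplicate difference ranked 33rd of 19775 genes in HCC2998. The mean level of the epithelial markers was also lower in most MSI lines, at 6.50 to 11.84 against 11.08 to 12.78 log2 in MSS lines. RKO, LIM2405, HCT116 and SW48, the lines with the lowest ALDH1A1, also had the lowest marker means, at 6.50, 9.06, 9.30 and 9.64. LS174T was the highest MSI line in both. The full order of lines by marker mean was still not that of ALDH1A1. LS174T had a marker mean of 11.84, above the 11.08 of CACO2 and the 11.68 of HT29, and HCC2998, with the lowest ALDH1A1 of the MSS lines, had 12.25. All 10 markers averaged lower in MSI lines, with 0 past the threshold in limma and 3 at an unadjusted p under 0.05, and their part in the ALDH1A1 difference was not tested.

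ALDH1A3, another enzyme of the same step, was instead highest in a pair of MSI lines. Its MSI values (E1 and E2) were 5.67 and 5.31 in RKO, 4.79 and 5.28 in SW48, 12.64 and 12.68 in HCT116, 14.20 and 14.22 in LIM2405, and 7.20 and 6.84 log2 in LS174T. Its MSS values were 8.05 and 7.03 in HT29, 6.67 in T84, 5.39 and 5.38 in CACO2, 8.81 and 8.36 in SKCO1, and 8.25 and 8.02 log2 in HCC2998. LIM2405 and HCT116 stood above all other lines, the remaining 3 MSI lines lay within or below the MSS range, and the groups overlapped.

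The step from HCT116 down to SKCO1 was 4.07 log2 and that from LIM2405 to HCT116 was 1.55, both beyond the largest duplicate difference of 1.02 in HT29, as was the step of 1.18 from T84 to RKO. The MSI mean of ALDH1A3 was 8.88 ± 4.26 and the MSS mean 7.26 ± 1.27 log2 (SD, n = 5 each). The difference of 1.62 ± 1.84 (SE) was smaller than its error, and it was 0.29 without LIM2405, 0.68 without HCT116, 2.47 without RKO and 2.58 without SW48. Differences among MSI lines (adjusted p = 1.63e-11) and among MSS lines (adjusted p = 3.58e-06) passed limma's moderated F test. The second ALDH1A3 probe set did not follow this pattern. It lay between 3.91 and 4.40 in the MSI lines, with LIM2405 lowest, and was highest in T84 at 5.68 log2.

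ALDH1A2, the retinaldehyde dehydrogenase best known from the embryonic trunk, was near the median of all values in every line. It ranged from 5.52 in LIM2405 to 6.07 log2 in HT29, with MSI and MSS means of 5.78 ± 0.22 and 5.83 ± 0.16. Neither the MSI lines (adjusted p = 0.133) nor the MSS lines (adjusted p = 0.509) passed limma's moderated F test for differences among themselves. Its other probe set lay at 4.03 to 4.83 log2 in 9 lines and at 5.62 and 5.85 in the SKCO1 cultures.

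**Figure D1:**
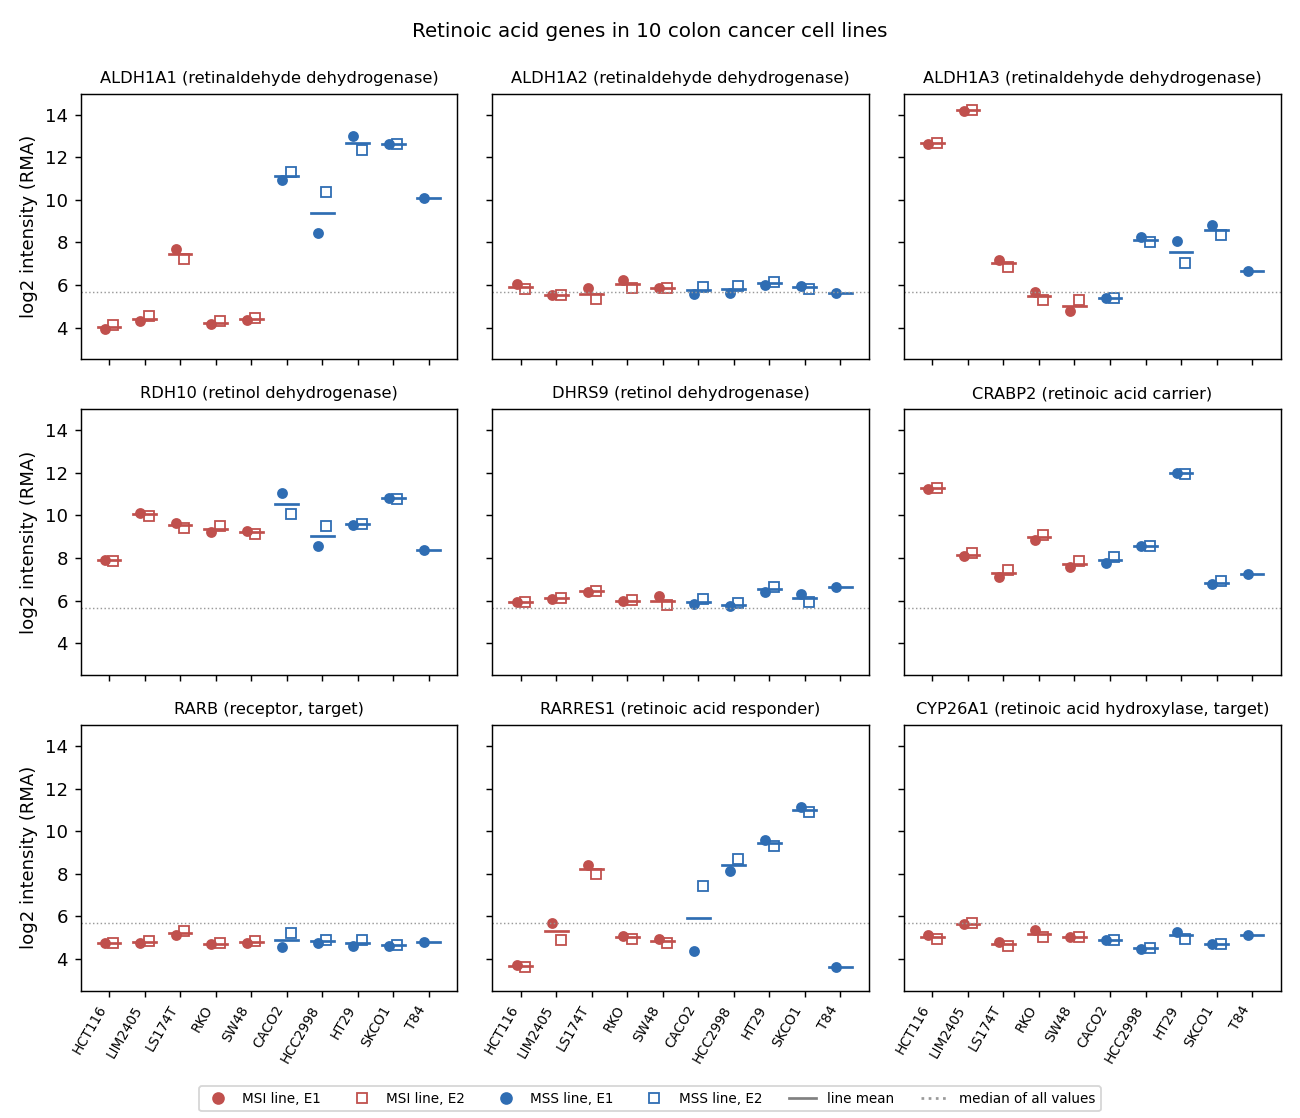
Level of each of the 9 genes (brightest probe set, log2 RMA intensity, vertical axis) in each of the 10 lines (horizontal axis), with E1 cultures as filled circles, E2 cultures as open squares, line means as bars and the median of all values, 5.67, as a dotted line. For ALDH1A1 all MSI arrays (red) lie at or below 7.67 and all MSS arrays (blue) at or above 8.43, whereas ALDH1A3 is highest in LIM2405 and HCT116.

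Only 1 of the 9 genes, ALDH1A1, had all MSI lines below all MSS lines, which 0.597% of all genes did. None had all MSI lines above, which 1.99% of all genes did. In the limma fit over all genes 0 of the 9 passed the threshold of 0.05 after adjustment, against 0.0455% of genes (9 of 19775), and 1 had an unadjusted p under 0.05, against 9.77%. Because the genes were chosen with this contrast known, nothing is read from these counts. The count of 0 was 1 without LS174T, where ALDH1A1 passed, and stayed 0 when any other single line was left out. The median difference over the 9 genes was -0.05 log2, and 0.01 without ALDH1A1, beside 0.07 over all genes.

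CRABP2, the cytosolic protein that hands retinoic acid to its receptors, was high in 1 line of each status. Its MSI values (E1 and E2) were 8.84 and 9.09 in RKO, 7.57 and 7.84 in SW48, 11.27 and 11.31 in HCT116, 8.11 and 8.22 in LIM2405, and 7.10 and 7.45 log2 in LS174T. Its MSS values were 12.01 and 11.94 in HT29, 7.27 in T84, 7.77 and 8.03 in CACO2, 6.76 and 6.93 in SKCO1, and 8.58 and 8.57 log2 in HCC2998. HT29 and HCT116 stood apart at the top, followed by RKO after a step of 2.32, and the groups overlapped. The step of 0.69 from HT29 to HCT116 also exceeded the largest duplicate difference of 0.35.

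The group means of CRABP2 were 8.68 ± 1.59 and 8.51 ± 2.04 log2 (SD, n = 5 each), a difference of 0.17 ± 1.07 (SE) that ran from -0.49 without HCT116 to 1.03 without HT29. Lines of the same status differed beyond their duplicates, with adjusted p = 7.21e-10 among MSI and 8.92e-11 among MSS lines in limma's moderated F test. HCT116 thus carried high levels of both ALDH1A3 and CRABP2, and HT29 of both ALDH1A1 and CRABP2.

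RARB, the retinoic acid receptor that is itself a retinoic acid target, was low on all 5 of its probe sets. The brightest ranged from 4.64 log2 in SKCO1 to 5.21 in LS174T, and the line means of all 5 probe sets lay under the median of all values. On the brightest, LS174T was highest with 5.13 and 5.30 in its cultures, by a step of 0.32 against a largest duplicate difference of 0.64. LS174T was also highest on the probe sets averaging 4.79 and 4.54 log2, but the lowest MSI line on those averaging 4.64 and 3.66. The group means were 4.84 ± 0.21 and 4.77 ± 0.10 log2 (SD, n = 5 each), a difference of 0.07 ± 0.11 (SE), which was -0.03 without LS174T. Differences among MSI lines (adjusted p = 0.109) and among MSS lines (adjusted p = 0.775) did not pass limma's moderated F test. Since these values lie near the array background, a difference in RARB may not be detectable here.

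RARRES1, a membrane protein first found as a gene induced by a synthetic retinoid, ranged more widely. Its MSI values (E1 and E2) were 5.05 and 4.94 in RKO, 4.92 and 4.76 in SW48, 3.72 and 3.59 in HCT116, 5.67 and 4.90 in LIM2405, and 8.43 and 7.97 log2 in LS174T. Its MSS values were 9.57 and 9.29 in HT29, 3.63 in T84, 4.38 and 7.42 in CACO2, 11.12 and 10.90 in SKCO1, and 8.11 and 8.66 log2 in HCC2998. SKCO1, HT29, HCC2998 and LS174T were high, T84 and HCT116 were lowest, and the groups overlapped. No step between neighbouring lines exceeded the largest duplicate difference, 3.04 in CACO2, and the widest was 2.30 from LS174T to CACO2. LS174T stood out less on the other probe sets, at 6.28 and 6.83 beside means over the 10 lines of 6.37 and 6.31 log2.

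The RARRES1 means were 5.40 ± 1.69 in MSI and 7.67 ± 2.93 log2 in MSS lines (SD, n = 5 each), a difference of -2.27 ± 1.40 (SE). Differences among MSI lines (adjusted p = 4.22e-04) and among MSS lines (adjusted p = 1.23e-05) passed limma's moderated F test, although the first call was lost without LS174T. The CACO2 cultures stood 3.04 log2 apart, which ranked 18th of 19775 genes in that line, and all 3 RARRES1 probe sets showed it. On the other probe sets the cultures lay at 4.88 and 6.95 and at 4.62 and 7.59 log2. The group difference was -1.80 in E1 cultures alone, -3.83 in E2 cultures alone, where T84 has no array, and -2.72 without CACO2. It was -1.44 without SKCO1, and -1.56 and -2.37 on the other probe sets.

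CYP26A1, the hydroxylase that clears retinoic acid and is among its most responsive targets, was under the median of all values in every line. Its MSI values (E1 and E2) were 5.36 and 5.01 in RKO, 5.02 and 5.02 in SW48, 5.11 and 4.93 in HCT116, 5.64 and 5.67 in LIM2405, and 4.79 and 4.61 log2 in LS174T. Its MSS values were 5.27 and 4.92 in HT29, 5.13 in T84, 4.90 and 4.88 in CACO2, 4.67 and 4.70 in SKCO1, and 4.44 and 4.52 log2 in HCC2998. LIM2405 was highest, by a step of 0.47 over RKO against a largest duplicate difference of 0.35, and the groups overlapped.

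The CYP26A1 means were 5.12 ± 0.35 and 4.86 ± 0.27 log2 (SD, n = 5 each), a difference of 0.26 ± 0.19 (SE), which was 0.12 without LIM2405 and 0.16 without HCC2998. Its lines differed within MSI (adjusted p = 0.00112) and within MSS (adjusted p = 0.0139) in limma's moderated F test. The first call was lost without LIM2405 and the second without HCC2998. Of the genes with a direct repeat in a promoter window, RARB and CYP26A1, neither had a line mean above the median of all values.

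**Figure D2:**
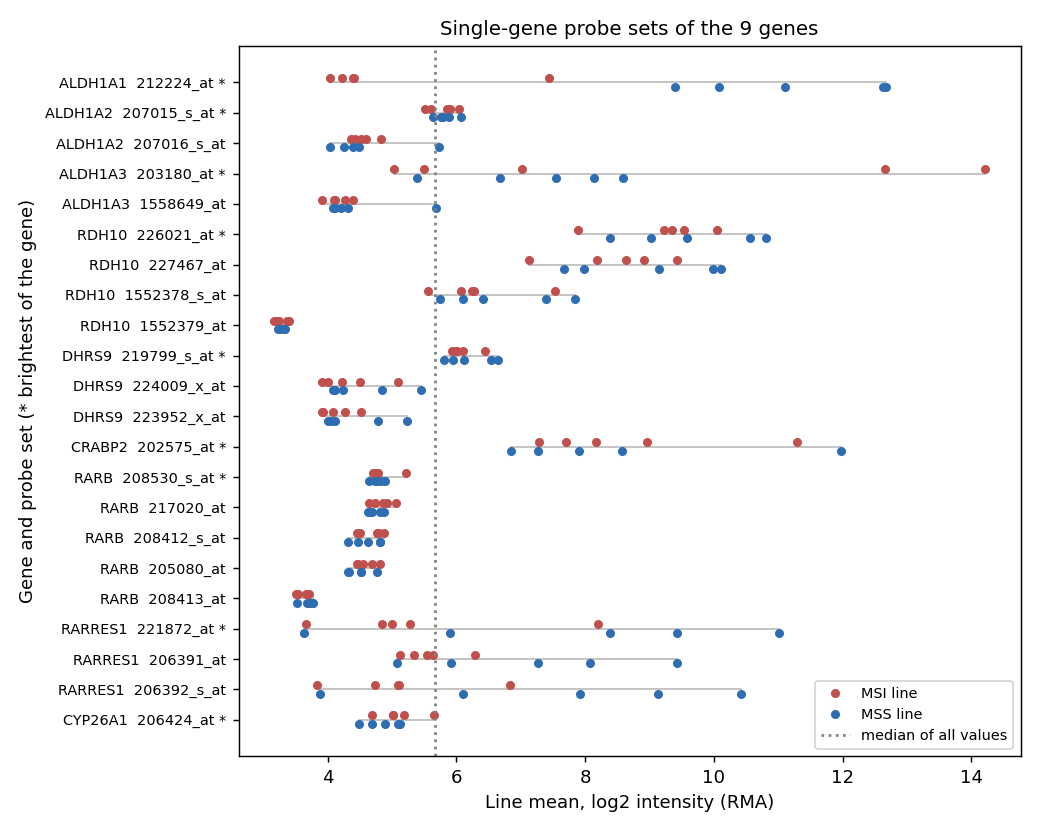
Line means (log2 RMA intensity, horizontal axis) of all 22 single-gene probe sets of the 9 genes (vertical axis, brightest of each gene marked with an asterisk), with MSI lines in red, MSS lines in blue, grey lines from the lowest to the highest line and the median of all values as a dotted line. The 3 RARRES1 probe sets share a wide spread with the same lines at the top, the 5 RARB probe sets all stay below the dotted line, and the dimmer probe set of ALDH1A3 is narrow where the brighter one is wide.

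Differences among lines of the same status were common among all genes, so the counts of the 9 are given beside that share and nothing particular to them is read from it. Among MSI lines 6 of 9 passed the moderated F test, beside 58.0% of all genes, and among MSS lines 7 of 9 did, beside 52.9%. All of the 6 were also among the 7, and DHRS9 was the seventh, while ALDH1A2 and RARB passed in neither. Without LS174T, 4 of the 9 passed among the remaining MSI lines, beside 10451 of 19775 genes. The error behind these p-values is that between cultures of the same line, and T84 is assumed to vary like the other lines.

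The range over lines set the genes further apart than these counts. ALDH1A3 spanned 9.17 log2, more than 99.9% of genes, ALDH1A1 8.64 (99.8%), RARRES1 7.38 (99.3%) and CRABP2 5.13 (95.7%). RDH10 spanned 2.92 log2 (84.6%), and the other 4 genes spanned 0.55 to 1.17, more than 25.5% to 45.6% of genes. The 4 genes with the widest ranges are 2 enzymes of the final oxidation, the carrier and 1 responder. As the genes were chosen from measured values, nothing about the pathway is read from these ranks.

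Line by line, the combination of genes differed. At least 1 log2 above the mean of a gene over the 10 lines stood ALDH1A3 and CRABP2 in HCT116, ALDH1A3 in LIM2405, and RARRES1 in LS174T. In RKO and SW48 none of the 9 genes did. RARRES1 in LS174T did so on its brightest probe set alone. Among MSS lines ALDH1A1 stood above its mean in all 5, joined by RDH10 in CACO2, RARRES1 in HCC2998, CRABP2 and RARRES1 in HT29, and RDH10 and RARRES1 in SKCO1. T84, with 1 array, had ALDH1A1 alone above and ALDH1A3, RDH10, CRABP2 and RARRES1 at least 1 log2 below. HCT116, RKO and SW48 each had 3 genes at least 1 log2 below, and LIM2405 and LS174T each had 2. CACO2 and SKCO1 each had 1, and HCC2998 and HT29 had 0.

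**Figure D3:**
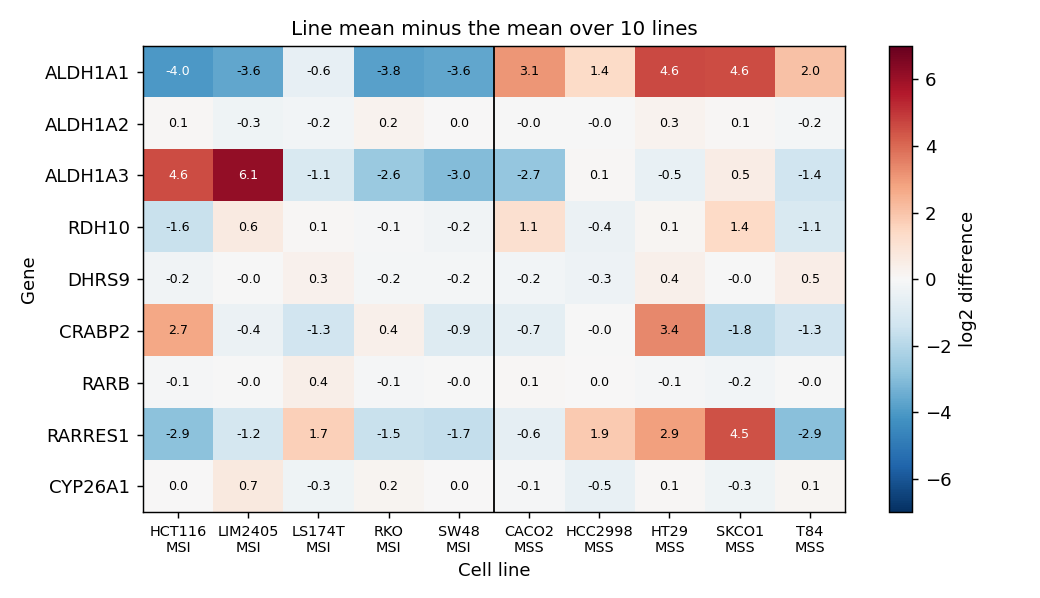
Line mean minus the mean over the 10 lines (log2, colour scale and printed values) for the 9 genes (vertical axis) in each line (horizontal axis, MSI left and MSS right of the black line). ALDH1A1 is positive in all MSS lines and negative in all MSI lines, ALDH1A3 is positive by 4.6 and 6.1 in HCT116 and LIM2405, and the rows of ALDH1A2, DHRS9 and RARB stay close to 0.

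Other genes of the pathway were taken from role lists of 54 genes that leave out the 9 and were not picked for how they moved. The lists were written with an earlier account of these data known, in which ISX was named. Of the 54, 44 were measured with a single-gene probe set, and the other 10 are not analysed here. In the limma fit over all genes 0 of the 44 passed the threshold in either direction, and 7 (15.9%) had an unadjusted p under 0.05, beside 9.77% of all genes. The mean was lower in MSI lines for 28 of 44 (63.6%), against 35.7% of all genes, and the median difference was -0.07 beside 0.07 log2 over all genes. Among MSI lines 27 of 44 (61.4%) passed the moderated F test and among MSS lines 28 (63.6%), beside 58.0% and 52.9% of all genes. All MSI lines lay below all MSS lines for 1 of the 44 and above for 2, beside 0.597% and 1.99% of all genes.

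In the list of uptake, storage and carotenoid cleavage, 0 of 10 genes passed and 7 averaged lower in MSI lines. ISX, an intestinal homeobox factor that represses carotenoid cleavage, was at 4.09 in HCT116, 4.16 in LIM2405, 5.29 in LS174T, 4.19 in RKO and 4.18 log2 in SW48. In the MSS lines ISX was at 9.52 in CACO2, 6.89 in HCC2998, 4.08 in HT29, 9.10 in SKCO1 and 6.95 log2 in T84. HT29 was as low as the MSI lines although its ALDH1A1 was among the highest, and the ISX difference was -2.93 ± 0.92 (SE, adjusted p = 0.347 in limma). BCO1, the enzyme that cleaves beta-carotene to retinaldehyde, had all MSI lines below all MSS lines, which 0.597% of all genes did. It was at 3.82 to 4.22 in MSI and 4.24 to 5.84 log2 in MSS lines (adjusted p = 0.400 in limma). T84 was the only line with BCO1 above the median of all values. In the same list 1 gene had all MSI lines above all MSS lines.

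Of 14 measured retinol and retinaldehyde oxidoreductases, 0 passed and 8 averaged lower in MSI lines. AKR1B10, a reductase that turns retinaldehyde back into retinol, was at 4.86 in HCT116, 4.57 in LIM2405, 8.08 in LS174T, 4.94 in RKO and 4.81 log2 in SW48. In the MSS lines AKR1B10 was at 6.26 in CACO2, 6.67 in HCC2998, 11.71 in HT29, 8.76 in SKCO1 and 7.29 log2 in T84. LS174T was the only MSI line above any MSS line, HT29 was the highest of all lines, and the difference was -2.69 ± 1.10 (SE, adjusted p = 0.472 in limma). ALDH8A1, a retinaldehyde dehydrogenase active on the 9-cis form, differed by 0.89 ± 0.25 (SE, adjusted p = 0.296 in limma) at group means of 4.81 and 3.93 log2, both under the median of all values.

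FABP5, the carrier that can bring retinoic acid to PPARD in place of the RAR receptors, was the only measured gene of its list. It was at 11.26 to 12.72 log2 in MSI and 8.19 to 11.51 in MSS lines, and the groups overlapped. The FABP5 difference was 1.72 ± 0.61 (SE, adjusted p = 0.397 in limma). Neither the MSI lines (adjusted p = 0.565) nor the MSS lines (adjusted p = 0.098) passed limma's moderated F test for differences among themselves. Of 9 nuclear receptors and co-regulators 0 passed and 6 averaged lower in MSI lines. The co-repressor NRIP1 differed by -1.92 (adjusted p = 0.554 in limma), with LIM2405 at 4.74 and all other lines at 7.94 to 11.14 log2. The coactivator NCOA1 differed by -0.88 (adjusted p = 0.570 in limma). Its probe set is of a kind that can match related sequences.

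Of 2 measured genes of retinoic acid degradation, CYP26B1 had all MSI lines above all MSS lines, which 1.99% of all genes did. Its values were 5.83 to 6.07 against 5.49 to 5.79 log2 (adjusted p = 0.376 in limma), all near the median of all values. Neither the MSI lines (adjusted p = 0.676) nor the MSS lines (adjusted p = 0.598) passed limma's moderated F test for CYP26B1. CYP2S1, another cytochrome that acts on retinoic acid, differed by -1.78 (adjusted p = 0.520 in limma), with RKO lowest at 4.15 log2. In the list of retinoic acid induced genes 0 of 8 passed and 6 averaged lower in MSI lines. PLAAT4, known earlier as RARRES3, lay at 8.81 in LS174T and 4.96 to 5.65 log2 in the other MSI lines. In the MSS lines PLAAT4 lay at 7.53 in CACO2, 5.29 in HCC2998, 11.02 in HT29, 5.49 in SKCO1 and 9.73 log2 in T84. SKCO1, which had the highest RARRES1, was thus low for PLAAT4, T84 was the reverse, and the PLAAT4 difference was -1.90 (adjusted p = 0.651 in limma). The homeobox gene MEIS1 differed by -0.56 (adjusted p = 0.627 in limma).

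**Figure D4:**
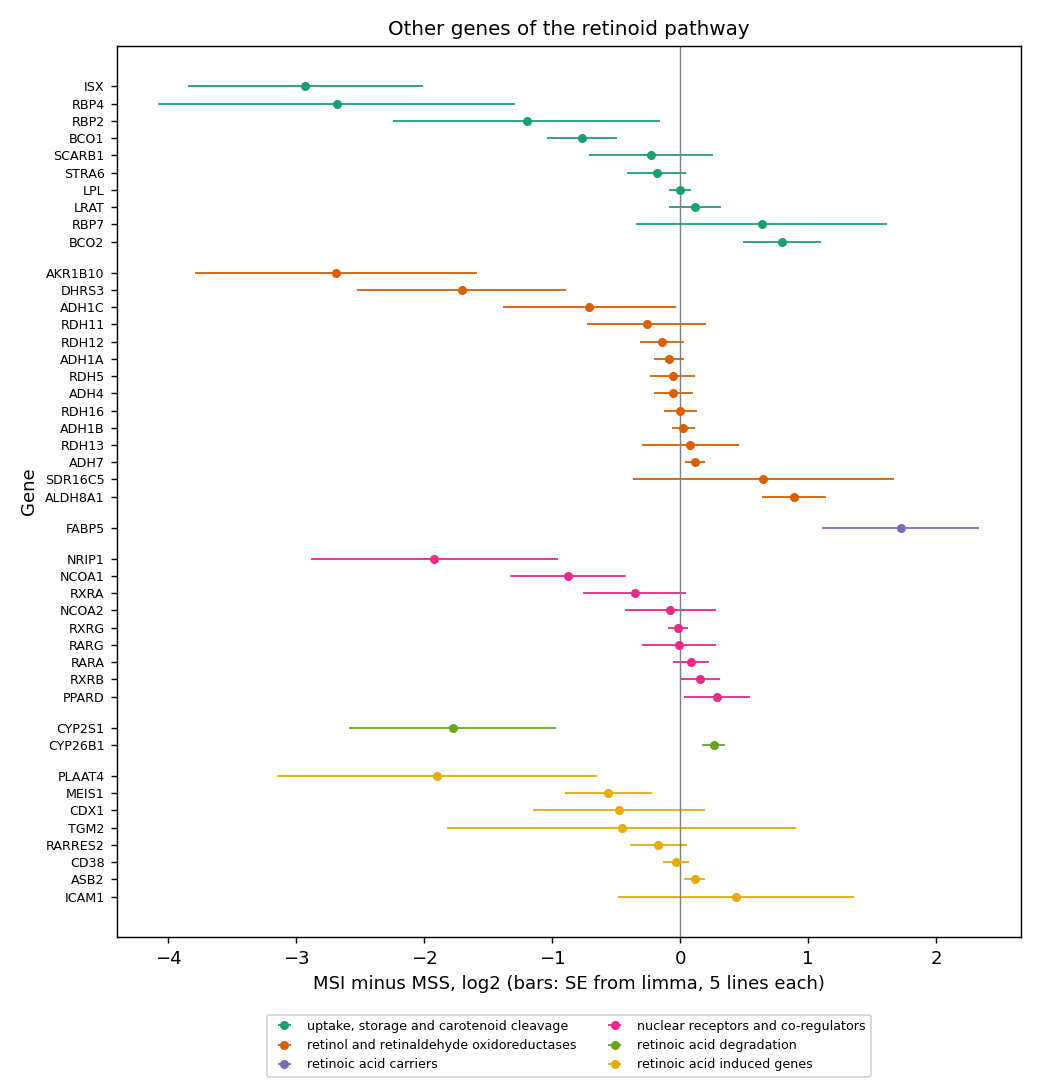
Difference between the means of 5 MSI and 5 MSS lines (log2, horizontal axis, bars are the SE from limma) for the 44 measured genes of the role lists (vertical axis), coloured by role. ISX, RBP4 and AKR1B10 lie furthest to the left and FABP5 furthest to the right, and none of the 44 passed the threshold.

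For the 4 genes with an SD of at least 1.5 log2 over the lines, the 3 genes with the most similar pattern were found by the root mean square difference of centred values over the 10 lines. For ALDH1A1 they were GASK1B at 1.06, GPX2 at 1.32 and CEACAM1 at 1.36 log2, beside an SD of 3.58 for ALDH1A1 itself. For ALDH1A3 (SD 3.08) they were UCA1 at 1.48, CYBRD1 at 1.57 and CTHRC1 at 1.63. For CRABP2 (SD 1.73) they were GALNT14 at 0.70, LAT2 at 0.77 and SNCG at 0.86. For RARRES1 (SD 2.55) they were SLC44A4 at 1.17, CREB3L1 at 1.28 and ACER2 at 1.30. The measure is a description of these 10 lines without a test. GPX2, a glutathione peroxidase of the gut, was at 5.19 to 9.97 log2 in MSI and 8.59 to 13.44 in MSS lines, so its groups overlapped where those of ALDH1A1 did not.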

How the data were processed

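Total RNA of 19 cultures was hybridised to Affymetrix arrays. The deposited values are log2 intensities, and RMA is named for them per the submitters' processing notes without version or settings. The values run from 2.78 to 14.92 and no normalization was added. Arrays carry no depth, so the number of lines limits the precision.

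Of 54675 probe sets, 62 controls were left out of the tests. The platform annotation ties 41091 of the others to 1 gene and 1801 to several and leaves 11721 unnamed here, and 41037 of the first matched the RefSeq gene table of GRCh38.p14 by Entrez number. Each of 19775 genes was represented by the brightest of its single-gene probe sets, by the mean of the 10 line values. Arrays of a line were averaged, since the line is the replicate. Groups were compared with limma 3.58.1 in R 4.3.3 (lmFit and eBayes, two-sided, Benjamini-Hochberg over all genes, threshold 0.05). Differences among lines of 1 status were tested with a moderated F test in 1 fit of all 19 arrays. Neighbouring lines were said to differ where their gap exceeded the largest difference between duplicate cultures of that probe set.

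The 9 genes, the role lists and the marker lists were chosen with earlier results of these data known. Named are all 9 genes, the genes of each role list that passed or else the 2 with the smallest unadjusted p, and the 3 genes most like each gene with an SD of at least 1.5 log2; KRT18 was added after its values were seen. Alternatives were other normalizations, other ways to represent a gene, each line left out, E1 or E2 cultures alone, all arrays with blocks, all probe sets, a filter on dim genes, other variance models and an equal-variance t statistic. Promoter windows came from RefSeq, and no reference genome was used. The deposited file that is named for means and a t-test was not used here.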

Additional observations from a re-analysis of the deposited data

Results flagged for a closer look

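In 18 groups of 5 line means (9 genes, MSI and MSS lines), 2 had a line far from the others by Dixon's ratio of the gap to the whole range, with a critical value of 0.71. Both were LS174T among the MSI lines. For ALDH1A1 the ratio was 0.889, with LS174T at 7.44, the next line at 4.41 and the lowest at 4.03 log2. For RARB the ratio was 0.86, with LS174T at 5.21, the next line at 4.78 and the lowest at 4.70 log2, all under the median of all values. LS174T was also highest on the RARB probe sets averaging 4.79 and 4.54 log2, but the lowest MSI line on those averaging 4.64 and 3.66. The nominal rate is about 1 in 20 unselected groups. As the genes were chosen from measured values, the flags are only a description.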

How the results depend on the processing

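The group contrast called 0 of the 9 genes. As the genes were chosen with this contrast known, its calls support nothing. The contrast called 1, always ALDH1A1, with each array centred on its median, with the probe set of largest interquartile range, with E2 cultures alone, with all probe sets tested, without dim genes, with trend and robust eBayes, and with all arrays, the line as a random block and the culture number as a replicate block. Leaving out single lines gave 0 to 1, the call coming without LS174T. Under the same settings the number of genes called, 9 in the fit reported, was 16, 62, 14, 103 of 54613 probe sets, 20 of 12823 genes, 16 and 304. It was 4 with E1 cultures alone, 1 with the equal-variance t statistic and 2 to 54 when lines were left out. Of the genes of the role lists 0 were called under every alternative run.

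Among MSI lines 6 of 9 genes differed, 4 to 7 when a line was left out and 6 with the replicate block. DHRS9 made it 7 with median centring, a second quantile normalization, the mean of all probe sets or the probe set of largest interquartile range. Among MSS lines 7 differed, 6 to 7 when a line was left out and 7 with the replicate block, and ALDH1A2 made it 8 with the mean of all probe sets. Without dim genes 5 and 6 of 7 differed. Whether culture numbers pair the lines was not tested. Over 36 pairs of lines the duplicate differences correlated at r from -0.15 to 0.226, with a median of 0.06 and 11 over 0.1. Of 153 recomputed group differences of the 9 genes 152 moved by less than 1 SD between lines of the same status. That SD was larger than the difference itself for every gene but ALDH1A1, such as 3.14 beside 1.62 for ALDH1A3. The count therefore does not show that the differences are stable. The difference of ALDH1A2 reached -0.29 with E2 cultures alone. The sign was opposite under 4 of 17 alternatives for CRABP2, 3 for ALDH1A2 and 2 for RARB. Without dim genes RARB and CYP26A1 were not tested. Signal near background limits RARB, CYP26A1, ALDH1A2, DHRS9 and ALDH1A1 in 4 MSI lines, where low values understate differences.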
